A study of Mus musculus with 6 samples.

Results

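Immediate early genes were followed through RNA bound to tagged ribosomes and through whole brain homogenate. The 10 genes described are Fos, Fosb, Jun, Junb, Egr1, Egr2, Nr4a1, Npas4, Arc and Ier2. They were chosen by symbol, and all 10 were found among the 24421 genes of the deposited count table. All 10 also passed the filter on low counts in each of the 3 fits used.

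The control mice were NG2CreERTM;Rpl22HA/+ and the knockout mice, called icKO for inducible conditional knockout of ankyrin-G, were NG2CreERTM;Ank3F/F;Rpl22HA/+. Both genotypes therefore carried a tamoxifen-activated Cre under the control of NG2 and 1 allele of the ribosomal protein Rpl22 that gains an HA tag once Cre has acted. Both were given tamoxifen at 8 weeks of age (100 mg/kg a day for 5 days), and brains were collected 1 month later. Each library pooled 3 mice. The control homogenate (input) and the icKO input were 1 library each, and the HA pull-down (IP) had 2 libraries per genotype. Library totals ran from 18968806 to 23930812 counts. NG2 is made by oligodendrocyte precursors and also by pericytes, so both kinds of cell, and the oligodendrocytes that arise from recombined precursors, can carry tagged ribosomes.

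Immediate early genes are switched on within minutes of a stimulus, before any new protein has been made, when kinases such as ERK and calcium-dependent kinases act on factors that already sit on their promoters (SRF with its ELK and MRTF partners, CREB, MEF2). Most encode transcription factors: FOS and JUN proteins pair to form AP-1, EGR proteins are zinc finger factors, NR4A1 is an orphan nuclear receptor and NPAS4 is a factor induced by calcium entry in neurons. Arc encodes a synaptic protein that acts in the removal of glutamate receptors. Their transcripts are short-lived, and in brain they are best known as marks of recent neuronal activity, although JUN and the EGR family also act in glia.

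The promoters of 4 members on which the results turn are shown as the 250 bases upstream of a RefSeq start (GRCm38, the mm10 assembly). Jun is shown as the member that stood above input in the IP and Fos as a member of the same AP-1 dimer that stood below it. Nr4a1 is shown because its place against input differed between genotypes, and Egr2 because its input ratio between genotypes was the highest of the 10. Capitals mark matches, on either strand, to a CRE (TGACNTCA), to the shorter CRE core (TGACG, which lies within a CRE whose free base is G), to an AP-1 site (TGANTCA), to an EGR site (GCGTGGGCG), to a TATA box (TATAAA), or to the CArG box of SRF and the MEF2 box, searched by name.
Jun: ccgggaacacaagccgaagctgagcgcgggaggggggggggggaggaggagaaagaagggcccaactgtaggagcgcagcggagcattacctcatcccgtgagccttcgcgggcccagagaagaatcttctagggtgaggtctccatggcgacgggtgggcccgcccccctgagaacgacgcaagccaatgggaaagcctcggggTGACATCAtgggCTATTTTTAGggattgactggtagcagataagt
Fos: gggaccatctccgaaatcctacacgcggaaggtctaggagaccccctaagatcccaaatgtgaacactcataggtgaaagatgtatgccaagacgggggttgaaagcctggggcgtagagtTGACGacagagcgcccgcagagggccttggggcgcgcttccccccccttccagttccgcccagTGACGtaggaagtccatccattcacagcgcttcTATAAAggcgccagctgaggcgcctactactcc
Nr4a1: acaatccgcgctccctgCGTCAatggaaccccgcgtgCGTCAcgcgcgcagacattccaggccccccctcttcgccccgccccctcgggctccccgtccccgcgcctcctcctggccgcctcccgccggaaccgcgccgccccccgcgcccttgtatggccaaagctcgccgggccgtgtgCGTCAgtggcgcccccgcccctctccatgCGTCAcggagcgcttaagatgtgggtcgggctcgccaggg
Egr2: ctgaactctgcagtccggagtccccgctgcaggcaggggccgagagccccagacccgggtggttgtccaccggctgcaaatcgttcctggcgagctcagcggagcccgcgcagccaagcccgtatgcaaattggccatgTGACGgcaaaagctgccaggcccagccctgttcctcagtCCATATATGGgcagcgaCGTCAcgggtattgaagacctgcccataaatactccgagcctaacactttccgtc
These windows are chr4:95052223-95052472 on the minus strand for Jun, chr12:85473640-85473889 on the plus strand for Fos, chr15:101266596-101266845 on the plus strand for Nr4a1 and chr10:67537619-67537868 on the plus strand for Egr2. None of them overlaps an annotated exon of GENCODE M21. Those of Nr4a1 and Egr2 lie within the annotated span of their genes, in an intron, and Egr2 has other RefSeq starts whose windows are not shown. In the Jun window the capitals are 1 CRE and 1 MEF2 box, held by 7.49% and 0.509% of all 32817 promoter windows of this length. The Fos window held 2 CRE cores and 1 TATA box, found in 17.7% and 12.4% of windows. The Nr4a1 window held 4 CRE cores. The Egr2 window held 2 CRE cores and 1 CArG box, which 1.47% of windows hold. AP-1 sites (6.75% of windows) and EGR sites (0.536%) were not among these letters, which says nothing about the factors themselves. Windows of 7 members were searched, and those of Egr1, Arc and Ier2 were not. CRE cores also lay in windows of Fosb, Junb and Npas4, which are not shown.

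Most members are short genes, and Nr4a1 has the longest span. Jun (chromosome 4, 95049034 to 95052222, minus strand, mm10), Junb (chromosome 8, 84974484 to 84978718, minus) and Ier2 (chromosome 8, 84661331 to 84662852, minus) have 1 exon in their longest coding transcript. The coding transcripts used for length ran from 1522 bases for Ier2 to 4484 bases for Egr1. Fos lies on chromosome 12 from 85473890 to 85477273 (plus), Fosb on chromosome 7 from 19302696 to 19310051 (minus), Egr1 on chromosome 18 from 34859823 to 34864984 (plus) and Egr2 on chromosome 10 from 67535475 to 67542188 (plus). Nr4a1 spans 101254269 to 101274795 (plus) and Arc 74669083 to 74672570 (minus) on chromosome 15, and Npas4 spans 4984355 to 4990316 (minus) on chromosome 19. Junb shares 351 bases with Prdx2 and Jun shares 689 bases with the antisense gene Junos. Whether the counting used strand is not stated, and reads of these overlaps cannot be told apart.

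Before the members are described, the libraries were checked against their labels, which give oligodendrocytes as the cell type of every library, homogenates included. Ank3, the targeted gene, measured 1391 and 1363 CPM (counts scaled to library size, with TMM factors over all 6 libraries, as all levels below) in control pull-downs against 1160 and 1163 CPM in icKO pull-downs, a log2 change of -0.23. Its count covers the whole gene, and the deleted exons are not given in the labels, so this is a weak check of genotype. Oligodendroglial markers were far above input in the IP, where 9 of 9 precursor markers (median log2 4.60) and 12 of 12 mature oligodendrocyte markers (2.62) rose. So did 8 of 8 pericyte and vascular smooth muscle markers (3.30). All 10 neuron markers fell (median -2.37), as did 8 of 8 astrocyte (-1.91), 8 of 8 microglia (-2.64), 6 of 7 endothelial (-1.74) and 6 of 6 choroid plexus markers (-2.63). Of 5 erythrocyte markers 4 globin genes were at 0 counts in every library. The pull-down thus kept transcripts of the neuron markers at a lower level. These markers summed to 11549 (control) and 11820 CPM (icKO) in homogenate and to 2616 to 2971 CPM after pull-down. None of them was at 0 in any library, and which cells these transcripts came from was not tested.

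Across the 4 groups the members differed widely in level. Per kilobase of transcript, Arc was the highest in both inputs (64.7 CPM per kb in control and 107 in icKO), followed by Egr1 (54.2 and 64.7). In the control IPs the order changed, with Jun highest at 49.5 ± 2.16 CPM per kb (SD, n = 2), Arc at 36.2 ± 0.220, Nr4a1 at 27.95 ± 0.530 and Egr1 at 15.3 ± 0.0827. In the icKO IPs Arc (50.6 ± 1.83) was above Jun (43.3 ± 0.292), and Nr4a1 (27.7 ± 0.605) and Egr1 (14.7 ± 1.26) again came next. Egr2 and Fosb were lowest in the control IPs at 0.812 ± 0.0603 and 0.823 ± 0.141 CPM per kb, and in the icKO IPs at 0.982 ± 0.267 and 1.003 ± 0.101, values that lie within each other's spread. Fos and Npas4 were neighbours within their spread as well, at 3.25 ± 0.553 and 3.18 ± 0.302 CPM per kb in the control IPs. Added up, the 10 genes took 0.0703% of all counts in the control input and 0.0954% in the icKO input, against 0.0451% to 0.0464% in the IPs.

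**Figure D1:**
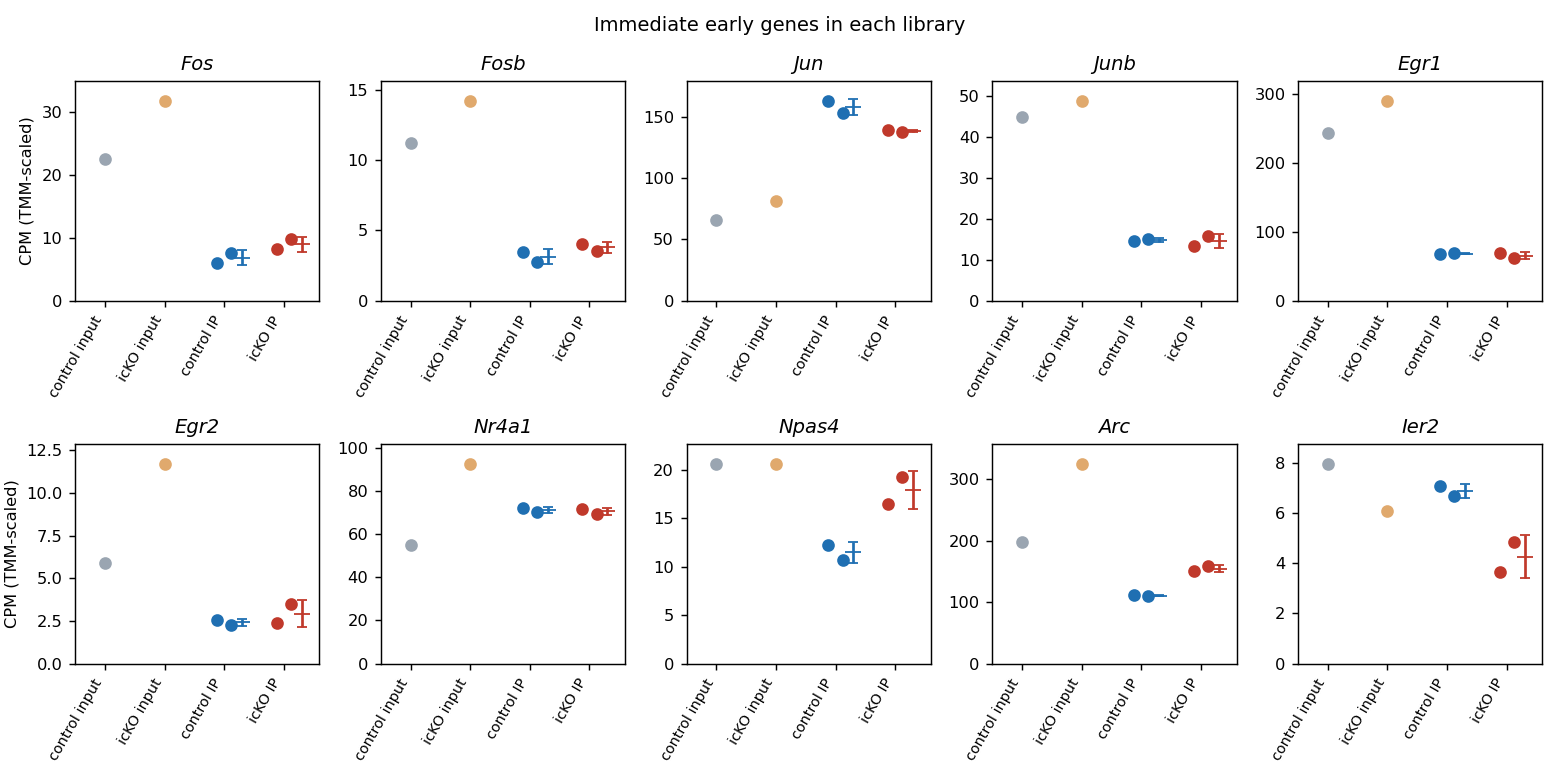
Level of each of the 10 immediate early genes in every library, in TMM-scaled CPM on axes that start at 0; each dot is 1 library and the bars beside the IP dots are the mean and SD of 2 libraries. Jun stands higher in all 4 IPs than in both inputs, Fos, Fosb, Junb, Egr1, Egr2, Npas4 and Arc stand lower, and in the icKO IPs Arc and Npas4 lie above the control IPs while Ier2 lies below them.

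The pull-down was next compared with the homogenate to see which members stood higher or lower in it. Jun rose against input, 7 members fell (Fos, Fosb, Junb, Egr1, Egr2, Npas4 and Arc), and Nr4a1 and Ier2 did not pass. In the same test, a quasi-likelihood fit in edgeR over 4 IP and 2 input libraries with genotype as a term, 70.0% of the 15451 genes tested were called (34.8% higher and 35.1% lower), so that a call alone is common here. The median log2 of the members was -1.32 and that of all genes tested 0.01. IPs and inputs did not overlap for 8 of the 10 members, with Jun above and 7 below, against 74.1% of all genes tested (37.1% above and 37.0% below). In bulk RNA, fewer cells of a type and less RNA per cell cannot be told apart. The homogenate also holds RNA that is not on ribosomes, and its part in these differences was not tested.

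Jun is an AP-1 subunit that can also pair with itself. Control mice gave 65.9 CPM of Jun in homogenate and 163 and 153 after pull-down, and icKO mice 81.2 CPM in homogenate and 139 and 137 after pull-down. All 4 IPs were above both inputs, and the control IPs were the highest. Over both genotypes Jun was 2.002-fold above input (log2 1.001 ± 0.11 SE, adjusted p = 1.66e-05 by edgeR, Benjamini-Hochberg). That places it at the 83.1 percentile of the log2 values of all genes tested, well under the precursor marker Pdgfra (5.21) and the myelin gene Mbp (2.22).

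Its FOS-family partners went the other way. For Fos, control homogenate held 22.5 CPM against 6.02 and 7.67 after pull-down, and icKO homogenate 31.8 CPM against 8.18 and 9.80. Fosb, whose truncated form accumulates in neurons after repeated stimulation, stood at 11.2 CPM in control homogenate with 3.49 and 2.74 after pull-down, and at 14.2 CPM in icKO homogenate with 4.06 and 3.525. Both were lower in every IP than in either input. Fos was 3.42-fold lower than in input (log2 -1.77 ± 0.12 SE, adjusted p = 8.43e-07) and Fosb 3.69-fold lower (-1.88 ± 0.15, adjusted p = 2.30e-06) in the same quasi-likelihood test. The IP values of Fosb rested on 64 to 76 reads a library and those of Fos on 126 to 185.

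Junb, a JUN protein that often restrains Jun at shared targets, followed Fos rather than Jun. Its control homogenate read 45.0 CPM and its control pull-downs 14.6 and 15.2, while icKO homogenate read 48.9 CPM and icKO pull-downs 13.4 and 15.9. Every IP was below both inputs, and the change was 3.19-fold (log2 -1.67 ± 0.09 SE, adjusted p = 2.05e-07 by edgeR). AP-1 transcripts therefore had a different make-up in the 2 fractions. Of the summed level per kilobase of Fos, Fosb, Jun and Junb, Jun made up 34.9% (control) and 35.7% (icKO) in homogenate and 75.0% to 81.2% in the 4 IPs, while Fos made up 18.1% and 21.1% in the inputs and 4.55% to 8.09% in the IPs. Per kilobase there were 1.93 and 1.69 Jun transcripts for each Fos transcript in homogenate, but 17.8 and 13.2 after pull-down from control mice and 11.2 and 9.27 from icKO mice.

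**Figure D2:**
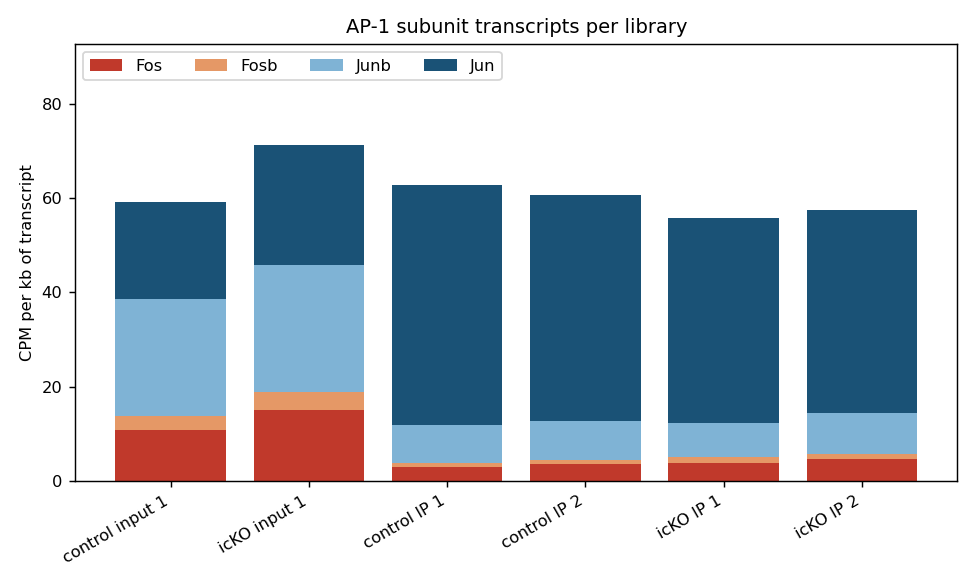
Stacked levels of the AP-1 members Fos, Fosb, Junb and Jun in each of the 6 libraries, in CPM per kilobase of transcript on an axis that starts at 0. Jun makes up 34.9% and 35.7% of the bar in the inputs and 75.0% to 81.2% in the IPs.

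Egr1 had the deepest fall of the 10 members, and Egr2 fell about as far as Junb. Egr1, a zinc finger factor whose level tracks ERK signalling in many tissues, measured 243 CPM in control homogenate against 68.3 and 68.8 after pull-down, and 290.1 CPM in icKO homogenate against 69.8 and 61.8. Egr2, known as Krox20 and required for myelination by Schwann cells, measured 5.91 CPM in control homogenate against 2.53 and 2.28, and 11.7 CPM in icKO homogenate against 2.35 and 3.47. Neither gene overlapped between IP and input. Egr1 was 3.97-fold lower in the IP (log2 -1.99 ± 0.08 SE, adjusted p = 3.12e-08) and Egr2 3.20-fold lower (-1.68 ± 0.21, adjusted p = 6.23e-05) in the same test. Egr2 rested on 44 to 63 reads in each IP.

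Arc and Npas4, the members most tied to neurons, fell less than the EGR genes. Arc went from 198 CPM in control homogenate to 111 and 110.1 after pull-down, and from 326 CPM in icKO homogenate to 151 and 158. Npas4 went from 20.6 CPM to 12.3 and 10.7 in control mice, and from 20.7 CPM to 16.5 and 19.3 in icKO mice. Arc was 1.95-fold lower in the IP than in input (log2 -0.96 ± 0.07 SE, adjusted p = 1.31e-06) and Npas4 1.45-fold lower (-0.53 ± 0.15, adjusted p = 0.0099) by edgeR. The neuron markers set beside them fell by 1.16 to 2.97 on the log2 scale, among them the synaptic gene Snap25 (-2.64). Their part in the falls of the members was not tested. Without the control input Npas4 was at -0.21 (adjusted p = 0.164, against a range of 1.21e-06 to 0.172 over its alternatives).

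Nr4a1 and Ier2 did not pass. Nr4a1, an orphan nuclear receptor induced in neurons, immune and vascular cells, had homogenate levels of 55.3 CPM (control) and 92.9 CPM (icKO), and pull-down levels of 72.3 and 70.4 (control) and 71.7 and 69.6 (icKO), so every IP lay between the 2 inputs (log2 -0.0347 ± 0.14 SE, adjusted p = 0.835). Ier2, a nuclear protein of the rapid growth factor response, had homogenate levels of 7.95 CPM (control) and 6.07 CPM (icKO), and pull-down levels of 7.07 and 6.675 (control) and 3.64 and 4.85 (icKO) (-0.36 ± 0.17, adjusted p = 0.0823). The IPs of Ier2 overlapped the inputs through the control genotype. With library totals in place of TMM it passed at -0.43 (adjusted p = 0.0477), and without the control input at -0.52 (0.0411), within a range of 0.0411 to 0.669 over its alternatives, in the same quasi-likelihood test.

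**Figure D3:**
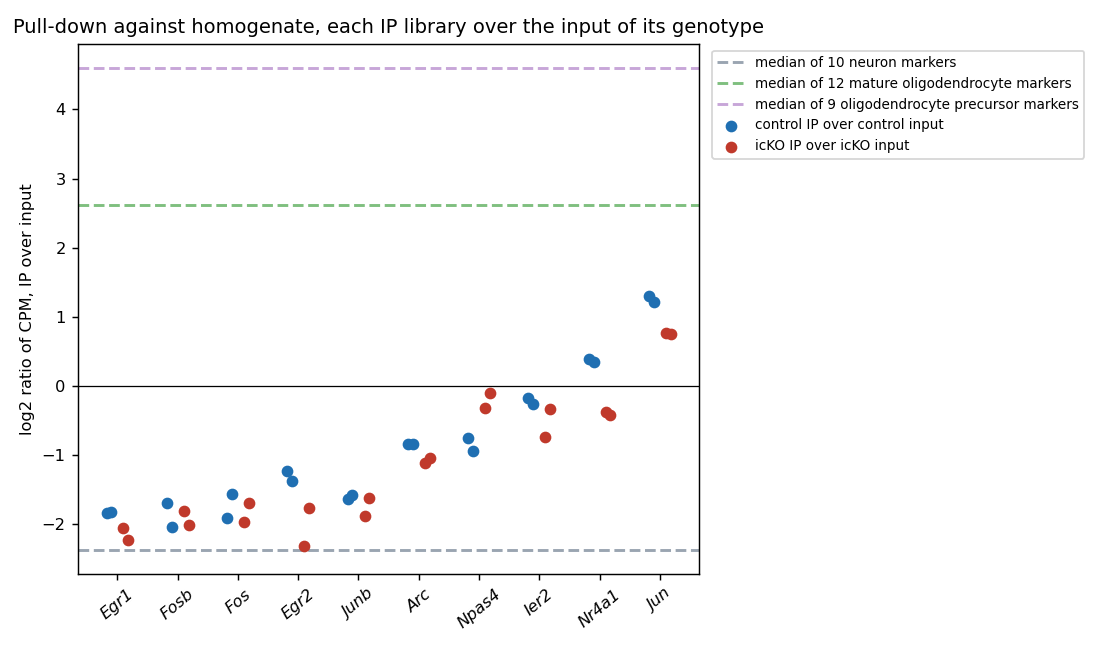
Log2 ratio of each IP library over the input of its own genotype for the 10 members, ordered by the fitted IP-input change; each dot is 1 IP library, blue for control and red for icKO, and dashed lines are the medians of the neuron, mature oligodendrocyte and precursor markers. Egr1, Fosb, Fos, Egr2 and Junb are the members nearest the neuron line (-2.37). The astrocyte (-1.91) and endothelial (-1.74) medians are not drawn, and they lie closer to the fitted changes of these members. Jun is the only member with all 4 dots above 0, and Nr4a1 has its control dots above 0 and its icKO dots below it.

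Between genotypes in the IP, the comparison set icKO mice against controls in pulled-down RNA. That RNA was enriched for oligodendroglial and pericyte markers but still held transcripts of neuron and astrocyte markers, whose cells of origin were not tested. Arc, Npas4 and Fos rose in the icKO IPs and Jun and Ier2 fell, while Fosb, Junb, Egr1, Egr2 and Nr4a1 did not pass. That is 5 of 10 members, and 47.2% of all 15069 genes tested were called in this fit (22.1% higher and 25.2% lower), so the members' share is near the background. The IPs of the 2 genotypes did not overlap for 6 members: Fos, Fosb, Npas4 and Arc lay above (34.5% of all genes did) and Jun and Ier2 below (37.6%). With library totals the called genes split into 2409 higher and 4979 lower, against 3326 and 3793 with TMM. The median log2 of the members was 0.14 and that of all genes tested 0.00. The labels call the 2 libraries of a genotype biological replicates without saying that their pools held different mice, so a p-value here may reflect technical spread alone.

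Arc had the clearest change. It went from 111 ± 0.673 CPM in the control IPs to 155 ± 5.59 CPM in the icKO IPs (SD, n = 2 each), 1.41-fold higher (log2 0.49 ± 0.04 SE, adjusted p = 8.34e-12 by edgeR, Benjamini-Hochberg). Npas4 went from 11.5 ± 1.09 to 17.9 ± 1.95 CPM, 1.57-fold higher (0.65 ± 0.12, adjusted p = 2.94e-05 in the same test). For both genes the 2 icKO IPs lay above the 2 control IPs, as they did in one direction or the other for 72.0% of all genes tested. Their values held their sign and their call in all 13 alternatives, with Arc between 0.41 and 0.53 and Npas4 between 0.53 and 0.76.

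The rise of Fos was smaller in relation to its error. Fos went from 6.85 ± 1.17 to 8.99 ± 1.15 CPM (SD, n = 2 each), 1.32-fold higher (log2 0.40 ± 0.16 SE, adjusted p = 0.0393 by edgeR). It did not pass with library totals (0.31, adjusted p = 0.108), in DESeq2 (0.41, adjusted p = 0.163), without control IP replicate 1 (0.24, adjusted p = 0.3) or without icKO IP replicate 2 (0.26, adjusted p = 0.295), and over all its alternatives the adjusted p ran from 0.0092 to 0.3. Fosb was at 0.30 ± 0.23 (adjusted p = 0.298) and Egr2 at 0.29 ± 0.27 (adjusted p = 0.41) in the same quasi-likelihood test. Fosb rested on 64 to 76 reads in each IP and Egr2 on 44 to 63.

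Jun fell from 158 ± 6.88 to 138 ± 0.930 CPM (SD, n = 2 each), to 0.88 of the control level (log2 -0.18 ± 0.04 SE, adjusted p = 3.95e-04 in the same test). Ier2 fell from 6.87 ± 0.282 to 4.24 ± 0.857 CPM, to 0.62 of it (-0.69 ± 0.19, adjusted p = 0.0028), a value that rests on 68 and 88 icKO reads against 148 and 161 control reads. Ier2 lay at the 3.37 percentile of all genes tested. Without icKO IP replicate 1 it was at -0.49 with an adjusted p of 0.0643 (range 3.86e-04 to 0.0643 over its alternatives) by edgeR. The fall of Jun passed in all 13 alternatives, between -0.27 and -0.14.

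Junb, Egr1 and Nr4a1 differed between genotypes by less than their error in the IP. Junb was at 14.9 ± 0.422 and 14.6 ± 1.80 CPM in control and icKO IPs, Egr1 at 68.6 ± 0.371 and 65.8 ± 5.64 CPM, and Nr4a1 at 71.4 ± 1.35 and 70.7 ± 1.54 CPM (SD, n = 2 each). Their log2 changes were -0.01 ± 0.12, -0.05 ± 0.06 and -0.0027 ± 0.05 (SE), with adjusted p of 0.934, 0.525 and 0.976 by edgeR. A p that misses the threshold does not show that levels are equal, but for Nr4a1 all 4 IPs fell within 69.6 to 72.3 CPM.

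Markers of several cell types also moved between the genotypes in the IP. All 12 mature oligodendrocyte markers fell (median log2 -0.75), with a summed level of 25483 and 25695 CPM in the control IPs and 15621 and 15504 CPM in the icKO IPs. All 8 pericyte and smooth muscle markers fell (-0.96), from 1595 and 1602 CPM to 811 and 828 CPM. Of 9 precursor markers 7 fell and 1 rose (-0.17). Of the 10 neuron markers 5 rose (Nefl, Camk2a, Rbfox3, Gad1 and Nrgn) and 2 fell (Snap25 and Syp), named after their values were seen, with a median of 0.08 and a sum of 2616 and 2653 CPM (control) against 2971 and 2923 CPM (icKO). The largest rise among them was 0.45, for the neurofilament gene Nefl. Of 8 astrocyte markers 5 rose, the most by 0.51 (Aldh1l1), and 1 fell, by 0.50 (Aldoc), with a median of 0.17. Of 8 microglia markers 1 rose and 2 fell (-0.0049). The part of these shifts in the changes of the members was not tested.

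The homogenates gave another picture, though with 1 library per genotype they allow no test. In the icKO input Egr2 was 1.98 times its level in the control input (95% exact binomial interval 1.595 to 2.47), Nr4a1 1.68 times (1.56 to 1.81), Arc 1.65 times (1.59 to 1.71) and Fos 1.41 times (1.25 to 1.59). Fosb (1.26, 1.06 to 1.504), Jun (1.23, 1.15 to 1.32) and Egr1 (1.19, 1.15 to 1.24) were higher as well. Junb (1.09, 0.994 to 1.19) and Npas4 (1.003, 0.877 to 1.15) had intervals that include equality, and Ier2 was lower (0.764, 0.602 to 0.966). These intervals cover counting error only and say nothing of the spread between mice. Over all genes the 2 inputs differed by more than counting error (chi-square per degree of freedom 5.45). How many of all genes have an interval that excludes equality was not counted, so the members cannot be set against that share. With 1 pool each, differences between pools and between genotypes cannot be told apart.

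**Figure D4:**
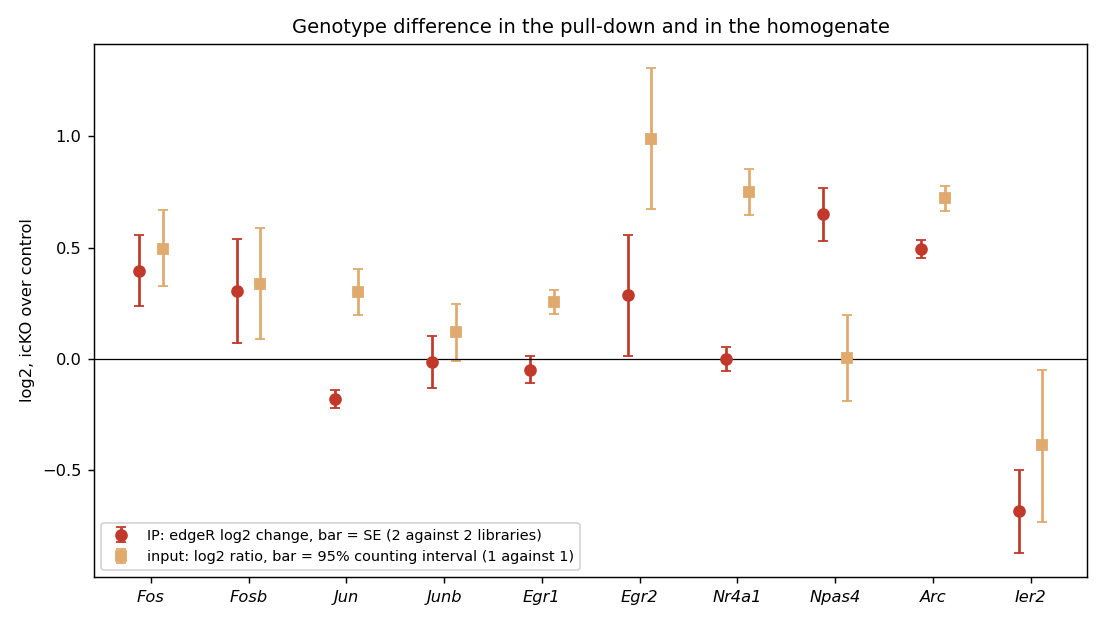
Log2 difference between icKO and control for each member, in the IP (circles, edgeR estimate with its SE, 2 against 2 libraries) and in the input (squares, ratio with its 95% counting interval, 1 against 1 library). Arc, Fos, Fosb and Egr2 lie above 0 in both fractions and Ier2 below 0 in both. Jun lies at 0.30 in the input and at -0.18 in the IP, with opposite signs. Nr4a1 lies at 0.75 in the input and at 0 in the IP, and Npas4 at 0 in the input and at 0.65 in the IP.

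Whether the genotype difference in the IP differed from that in the input was tested over all 6 libraries. Of the members, 5 passed (Npas4 higher, and Nr4a1, Jun, Egr1 and Arc lower), against 23.6% of the 15936 genes tested (9.67% higher and 13.9% lower). The test assumes that each lone input varies like a pair of IPs, for which the fit gave a common biological coefficient of variation of 3.01%. In DESeq2 2 of the members passed, Nr4a1 and Jun. Over all genes TMM gave 1541 higher and 2222 lower calls, library totals 1153 and 2965, and the upper quartile 1948 and 1696.

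Nr4a1 had the largest such difference among the members that passed, at -0.76 ± 0.09 (log2, SE, adjusted p = 2.95e-07 by edgeR). It was 1.29-fold above input in the control libraries (log2 0.37, adjusted p = 1.80e-05) and 1.31-fold below it in the icKO libraries (-0.39, adjusted p = 2.86e-06), in the same 6-library fit. Over the members, that fit placed 2 above and 7 below input in control libraries, where 68.3% of all genes were called (34.4% higher and 33.9% lower), and 1 above and 8 below in icKO libraries, where 69.4% were (34.7% higher and 34.8% lower). For Jun the difference was -0.49 ± 0.08 (adjusted p = 3.56e-05): it rose against input by 1.25 in control and by 0.77 in icKO (log2). For Egr1 it was -0.31 ± 0.08 (adjusted p = 0.0031) and for Arc -0.23 ± 0.06 (adjusted p = 0.0069), by edgeR. Both stood higher in the icKO input, by more than their change in the IP.

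Npas4 was the member whose genotype difference was larger in the IP, by 0.64 ± 0.19 (log2, SE, adjusted p = 0.0127 in the same quasi-likelihood test). Its inputs were at 20.6 and 20.7 CPM and its IPs at 12.3, 10.7, 16.5 and 19.3 CPM. In DESeq2 it was at 0.64 with an adjusted p of 0.223, Arc at -0.24 with 0.116 and Egr1 at -0.31 with 0.0771, so these 3 calls rest on the tool. Over their alternatives the adjusted p ran from 0.0017 to 0.223 for Npas4, from 4.73e-04 to 0.116 for Arc and from 4.47e-06 to 0.0771 for Egr1. Egr2 did not pass (-0.71 ± 0.34, adjusted p = 0.145), nor did Fos, Fosb, Junb and Ier2, but without icKO IP replicate 2 Egr2 passed at -1.01 (adjusted p = 0.0409, range 0.0409 to 0.599) by edgeR.

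Relatives of the members were taken from lists chosen for their place in the pathway. Their counts are read against the shares of all genes called, 70.0% for IP against input (34.8% higher and 35.1% lower) and 47.2% between genotypes in the IP (22.1% higher and 25.2% lower), and no list was tested as such. Of 12 other AP-1 and related bZIP genes 9 were tested against input, of which 1 rose and 4 fell. The FOS-family gene Fosl2 fell (log2 -1.34) and so did Jund (-0.59), the JUN protein that is made without a stimulus, and Atf2 (-0.95), while Atf7 rose (0.73). The fall of Jund lay mostly in the icKO libraries. It stood at 185 CPM in the control input against 169 and 167 CPM in the control IPs, and at 198 CPM in the icKO input against 98.7 and 99.0 CPM in the icKO IPs. Its genotype difference in the IP minus that in the input was -0.85 (log2), with 1 input per genotype. Atf3, a stress-induced partner, stood at 0.24 to 0.78 CPM in all 6 libraries and was not tested against input. Between genotypes in the IP 2 of 8 rose and 3 fell. Jund went from 169 and 167 CPM in the control IPs to 98.7 and 99.0 CPM in the icKO IPs (log2 -0.75 ± 0.04 SE, adjusted p = 1.54e-16 by edgeR), while Fosl2 rose (0.60) and Maff fell (-1.61, at 0.33 to 1.74 CPM in the IPs).

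Of the 6 relatives and corepressors of EGR and NR4A factors, 5 fell against input and 0 rose. Egr4 (log2 -2.13), Egr3 (-2.01) and the dopamine neuron factor Nr4a2 (-1.21) led the falls. Between genotypes in the IP 3 rose and 1 fell: Egr3 went from 36.2 and 33.6 CPM to 54.9 and 48.1 CPM (0.57 ± 0.07, adjusted p = 6.22e-08), the EGR corepressor Nab2 rose by 0.39 and Nr4a3 by 0.32, by edgeR. Nr4a2 was at 0.11 (adjusted p = 0.452).

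Of 21 upstream kinases and factors 14 fell against input and 3 rose, where 70.0% of all genes were called and 35.1% were lower, with the falls led by the neuronal factor Mef2c (log2 -1.65), the calcium-dependent kinase Camk4 (-1.53) and Map2k1, which activates ERK (-1.32). Srf, the factor that binds the CArG box, fell by 0.37. Between genotypes 8 rose and 5 fell, among them the ERK gene Mapk3 (-0.66), Elk3 (-0.49) and Elk1 (0.39), and Srf was at -0.02 (adjusted p = 0.852 in the same quasi-likelihood test).

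Feedback inhibitors, which shut down ERK signalling or destroy early transcripts, divided in the comparison with input, where 4 of 9 rose and 5 fell. Spry4 rose (log2 2.25), as did Zfp36l1 (1.91), Zfp36l2 (1.20) and Zfp36 (0.76), the last 3 of which encode proteins that bind and destabilise AU-rich mRNAs, while the phosphatase gene Dusp1 fell (-0.63). Between genotypes in the IP 5 of the 9 fell and 0 rose, with a median of -0.31, where 47.2% of all genes were called and 25.2% were lower. Spry4 fell from 76.4 and 78.6 CPM to 53.1 and 52.6 CPM (-0.54 ± 0.06, adjusted p = 1.09e-09 by edgeR), Zfp36l1 by 0.49 and Zfp36 by 0.60, while Dusp1 was at -0.07 (adjusted p = 0.662).

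Other rapid response genes (17 tested) rose against input in 5 cases and fell in 9. Klf2 (log2 -1.74), Gadd45b (-1.65) and Ier5 (-1.41) led the falls, and Btg2, an antiproliferative gene, fell as well (-0.65). Between genotypes 2 rose and 2 fell, among them the clock gene Per1 (0.22), Klf10 (0.38) and the kinase gene Sgk1 (-0.19), and Btg2 was at -0.02 (adjusted p = 0.929 in the same test). Of 15 later activity-regulated neuronal genes 14 fell against input and 1 rose, including Scg2 (-2.62), Vgf (-2.47), Nrn1 (-2.41), the neurotrophin gene Bdnf (-2.10) and the synaptic scaffold gene Homer1 (-0.99). Between genotypes 5 of these rose and 2 fell: the prohormone convertase gene Pcsk1 rose by 0.83, Homer1 by 0.43, Rgs4 fell by 0.34, and Bdnf was at 0.30 (adjusted p = 0.213 by edgeR).

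**Figure D5:**
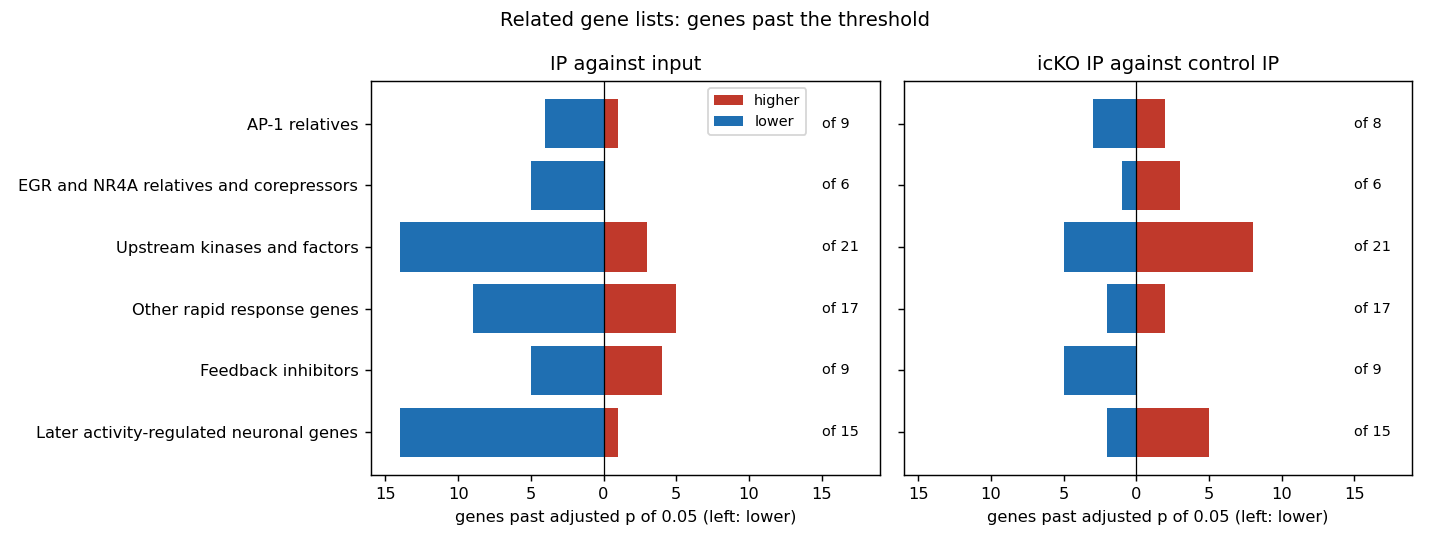
Number of genes in 6 related lists that were higher (red, right) or lower (blue, left) past an adjusted p of 0.05 in edgeR, for IP against input and for icKO IP against control IP, with the number tested at the right edge; of all genes, 70.0% and 47.2% were called in these comparisons. Later neuronal genes and upstream factors are mostly lower in the IP than in input, 14 of 15 and 14 of 21, and the feedback inhibitors called between genotypes, 5 of 9, are all lower in the icKO IPs.

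The members did not share a single profile over the 6 libraries. As a measure of likeness, log2 CPM was centred on its mean for each gene, and the root mean square difference between 2 genes was taken over the libraries, so that values near 0 mean like profiles. The nearest pair of members was Fosb and Egr1 (0.19), followed by Junb and Egr1 (0.20) and Fos and Junb (0.22). Npas4 and Arc stood 0.30 apart. Among 11634 other genes with a mean of at least 5 CPM, the 2 closest to Jun were Cyp51 (0.03) and Crtc3 (0.04), and the 2 closest to Egr1 were Diras1 (0.06) and Chgb (0.06). Those closest to Junb were Kcnab3 and Chga (0.07 each), to Fos Myh7 (0.11) and Lynx1 (0.13), and to Fosb Kcns2 and Necab3 (0.10 each). For Npas4 they were Trpm2 (0.05) and Slc9a5 (0.06), for Arc Cabp7 (0.11) and Gcnt4 (0.13), and for Nr4a1 Rpp25l (0.06) and Thbs2 (0.09). For Ier2 they were Slc2a1 (0.09) and Bola1 (0.10), and for Egr2 Susd2 (0.20) and Htr7 (0.23). These are descriptions over 6 libraries that fall into 4 groups and share the contrast between IP and input.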

How the data were processed

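RNA was measured in 6 libraries of mouse brain, 4 IPs and 2 inputs, each from a pool of 3 mice. The deposited table holds raw read counts per gene symbol, without normalization. Libraries were made with a stranded total RNA kit, per the labels' protocols. The submitters' processing notes name Trimmomatic 0.39, STAR 2.7.10b and mm10. Counter, annotation, strand setting and molecular identifiers: not given in the sources used here. Of 24421 genes 10 had no value in the inputs and were left out. Titles gave each group and replicate number, and the 1 title reading cKO was taken as icKO.

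TMM-scaled counts entered edgeR 4.0.16 (R 4.3.3) and its quasi-likelihood F test (two-sided, low genes removed with filterByExpr on the design, Benjamini-Hochberg adjustment over all genes tested, threshold 0.05). The IP comparison used the 4 IP libraries alone, IP against input used all 6 with genotype as a term, and the difference of differences used 4 groups. Residual degrees of freedom were 2, 3 and 2. The CPM of single libraries and group means use TMM over all 6 libraries, so their ratios differ slightly from the fitted changes. Levels per kilobase use the longest coding transcript of GENCODE M21. Simulated counts were used to test the fits: of genes changed by 0.5 (log2) in the IP comparison 70.0% were recovered, and 91.9% of those changed by 1. Without replicate inputs 45.5% and 71.9% were recovered in the difference of differences. All simulated libraries, lone inputs included, were given the same variation, close to 3.01%. Recovery in the difference of differences with inputs that vary more was not tested. In IP against input 78.4% and 87.8% were recovered. On the real libraries that fit gave a common biological coefficient of variation of 8.61%, against 3.01% in the IP comparison. Recovery in IP against input at a variation of 8.61% was not tested.

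A level of 3 counts, the limit that a count of 0 allows, was 0.125 to 0.158 CPM of the library totals; intervals cover counting error only. Chi-square per degree of freedom between replicate IPs was 2.19 (control) and 2.11 (icKO), above sampling noise, so each was kept as a sample. Promoter windows come from RefSeq (GRCm38.p6).

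The members and gene lists were chosen with earlier results of these data known, so the lists are described by counts and have no test of their own. Always named were the 10 members, 11 related genes and 8 cell type markers. For each list and comparison the genes with the 3 largest changes past the threshold were eligible, and for each member the 2 genes of the nearest profile were named. Alternatives were other scalings, filters, DESeq2 1.42.0, offsets that remove trends with transcript length or GC content, a replicate block, and leaving out each library.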

Additional observations from a re-analysis of the deposited data

Results flagged for a closer look

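For 5 members the difference between icKO and control in the IP differed from that in the input, by an interaction test in edgeR's quasi-likelihood fit. On the log2 scale the IP difference minus the input difference was -0.76 for Nr4a1, -0.49 for Jun, -0.31 for Egr1, -0.23 for Arc and 0.64 for Npas4. For Nr4a1 and Jun the call also held in DESeq2. The input side of each value rests on 1 library per genotype, and differences between pools of mice were not tested.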

How the results depend on the processing

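Calls of Arc, Npas4 and Jun between genotypes, of Fos, Fosb, Jun, Junb, Egr1, Egr2 and Arc against input, and of Nr4a1 and Jun in the difference of differences kept their sign and their side of the threshold under every alternative run on them; the filter of 5 CPM left Egr2 untested in each fit and Fosb untested between genotypes. Between genotypes in the IP, Nr4a1 (-0.0027) turned to 0.0017 with DESeq2 size factors, 0.0275 with the upper quartile, 0.0280 with the 5 CPM filter, 0.0312 with the length offset, 0.0415 with the GC offset and 0.0013 in DESeq2, and ran from -0.0275 to 0.0188 as each library was left out. Junb turned to 0.0164 with the upper quartile, 0.0167 with the 5 CPM filter, 0.0965 with the length offset and 0.0256 with the GC offset, and ran from -0.145 to 0.105 as each library was left out. In the same way Egr1 ran from -0.141 to 0.0353 and Egr2 from -0.0197 to 0.538. Against input, Nr4a1 (-0.0347) turned to 0.0466 with the length offset, 0.0943 with the GC offset and 0.366 in the control libraries alone, and leaving out libraries took it from -0.394 without the control input to 0.363 without the icKO input, both past the threshold. In the difference of differences Fosb turned to 0.0222 with the upper quartile and 0.0024 with the 5 CPM filter and ran from -0.213 to 0.137 as each library was left out, and Fos from -0.264 to 0.0843. Members that fell between genotypes numbered 1 to 2 when a library was left out, and members above input 1 to 2, the additional one being Nr4a1 without the icKO input. In the difference of differences DESeq2 called 1567 genes, 0 members higher and 2 lower, against 3763, 1 and 4 in edgeR. For these shifts the cause was not tested, and no fit of that difference was possible without an input.

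The replicate numbers carry no stated pairing, and same-numbered IPs did not deviate together (correlation -0.0031 over 15069 genes). With the replicate block 7277 genes and the same numbers of members, 3 higher and 2 lower, were called between genotypes, against 7119 without it. Depth limits Fosb, Egr2 and Ier2 most, at 44 to 161 reads in each IP.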
